A study of Mus musculus with 21 samples.

Results

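Secreted proteins that start or restrain the growth of blood vessels were followed in tumours and cultures of 2 mouse mammary tumour cell lines. The 10 genes were the angiogenic ligands Vegfa, Vegfb, Vegfc, Pgf, Angpt1, Angpt2, Fgf2 and Apln and the inhibitors Thbs1 and Thbs2. All 10 of 10 were measured, among 22180 genes on the array. They were chosen by name, with earlier results of these data known. Each was read from 1 probe set, the brightest on average across the 21 arrays of those annotated to that gene alone.

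Py8119 and Py117 are cell lines derived from MMTV-PyMT mice, in which the mammary tumour virus promoter drives the polyoma middle T antigen in mammary epithelium. The series calls Py117 sensitive and Py8119 resistant to radiation. Mixed tumours (n = 5) grew from a 1:1 mixture of Py8119 and Py117 cells, Py8119 tumours (n = 5) and Py117 tumours (n = 5) from 1 line each, and Py8119 cultures (n = 3) and Py117 cultures (n = 3) held the lines alone. Each tumour was started with 1000000 cells injected in matrigel and saline into mammary fat pad number 4, and was collected untreated on the day on which irradiation would have been given. The cultured cells grew in Ham's F12K medium with 5% FBS and were also untreated. Strain, sex and age of the host mice were not given in the sources used here. The labels call the arrays of a group biological replicates without saying that each came from a separate mouse or culture, so p-values measure the spread between these samples.

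Vascular endothelial growth factors act on receptor tyrosine kinases of the vessel wall. VEGF-A, the main driver of sprouting, binds Flt1 and Kdr, PlGF (Pgf) and VEGF-B bind Flt1, VEGF-C binds Flt4 and is best known for lymphatic growth, and the neuropilins Nrp1 and Nrp2 are co-receptors. Angiopoietin 1, made mostly by perivascular and stromal cells, activates Tek (Tie2) and steadies vessels, whereas angiopoietin 2, made by activated endothelium, can oppose it. Apelin marks sprouting tip cells and acts through Aplnr, basic FGF acts through the FGF receptors, and the thrombospondins inhibit vessel growth through Cd36 and Cd47. Vegfa, Angpt2 and Apln are also known targets of the response to low oxygen.

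Values are log2 signals, so a difference of 1 is a doubling. Signals of different genes come from different probes and are not set against each other. Array medians lay between 5.24 and 5.53. As a guide to background, 95% of 1394 olfactory and vomeronasal receptor genes, which these cells are not known to use, had means at or under 5.31, and a signal at or under that value is called background here. The number of arrays, 5 against 5 or 3 against 3, limits the precision of every difference. Differences were tested with limma across all 22180 genes, and a gene was called changed at a Benjamini-Hochberg adjusted p under 0.05.

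The tumours of the 2 lines differed in vessel markers. All 20 of 20 endothelial genes were lower in Py8119 tumours than in Py117 tumours, with a median difference of -1.43 against 0.01 over all genes. Among all genes, 37.4% were called between these tumours, 21% higher and 16.5% lower, and the counts of the other lists stand beside that share. The mean of the 16 endothelial genes that are not receptors of these ligands was 6.85, 6.95, 6.99, 6.84 and 7.02 in the mixed tumours. It was 6.64, 6.55, 6.84, 6.88 and 6.70 in the Py8119 tumours, against 8.32, 8.03, 7.58, 8.05 and 8.02 in the Py117 tumours. Every Py117 tumour therefore lay above every mixed and every Py8119 tumour. In the cultures the same mean was 5.33 ± 0.15 in Py8119 cells and 5.47 ± 0.06 in Py117 cells (SD, n = 3 each), with 8 and 7 of the 16 genes in the background range. In bulk samples, fewer endothelial cells and less RNA per cell cannot be told apart. Other host cell markers moved with the line too. Of 12 fibroblast genes, 11 were lower and 1 higher in Py8119 tumours, of 10 pericyte genes 7 were lower and 1 higher, and of 15 adipocyte genes 12 were lower and 0 higher. Of 14 macrophage genes, 9 were higher and 1 lower. As a check of the lines, the epithelial adhesion gene Epcam averaged 7.74 ± 0.42 in mixed, 5.13 ± 0.45 in Py8119 and 10.27 ± 0.27 in Py117 tumours (SD, n = 5 each), so the mean of the Py8119 tumours, and 3 of the 5 arrays, lay in the background range for this defining epithelial marker, while Krt8 was measured in all of them (9.56 ± 0.10 in Py8119 tumours). The part of each cell type in the differences below was not tested. Some of the values that moved with the mean of the adipocyte genes as a covariate are given below, but not all. That mean was at least 6.56 in every Py117 tumour, and at most 6.33 in the mixed and 6.36 in the Py8119 tumours. The covariate therefore cannot tell adipocyte content from line where Py117 tumours are compared with the others.

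**Figure D1:**
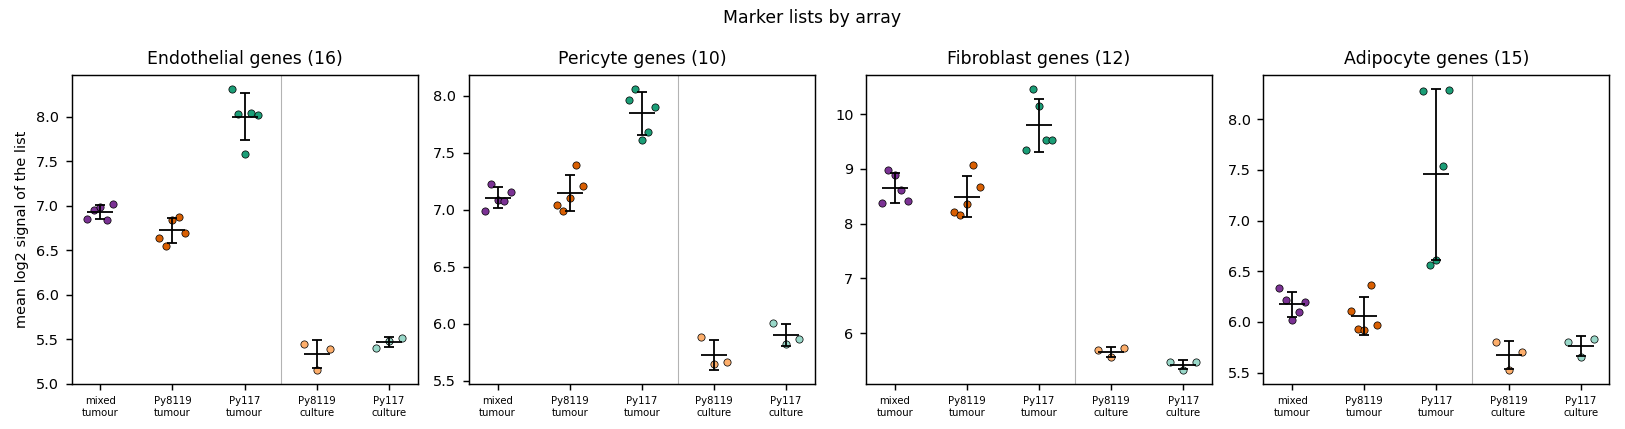
Mean log2 signal of 4 marker lists (16 endothelial, 10 pericyte, 12 fibroblast and 15 adipocyte genes) in each array of the 3 tumour and 2 culture groups. Points are arrays and bars show the group mean ± SD. The endothelial mean of every Py117 tumour lies above that of every mixed and Py8119 tumour, and the adipocyte mean spreads most among the Py117 tumours.

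In the tumours, 9 of the 10 genes differed between the lines, 2 higher and 7 lower in Py8119 tumours. Among all genes 37.4% were called, 21% higher and 16.5% lower. Vegfb and Vegfc were higher in Py8119 tumours, and Vegfa, Pgf, Angpt2, Fgf2, Apln, Thbs1 and Thbs2 were lower. In the cultures 6 of the 10 were called, 3 higher (Vegfb, Vegfc, Apln) and 3 lower (Vegfa, Thbs1, Fgf2) in Py8119 cells, against 26.8% of all genes (14.5% higher and 12.3% lower). The median difference of the 10 genes was -0.60 in the tumours, against 0.01 over all genes, and 0.12 in the cultures, against -0.01.

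**Figure D2:**
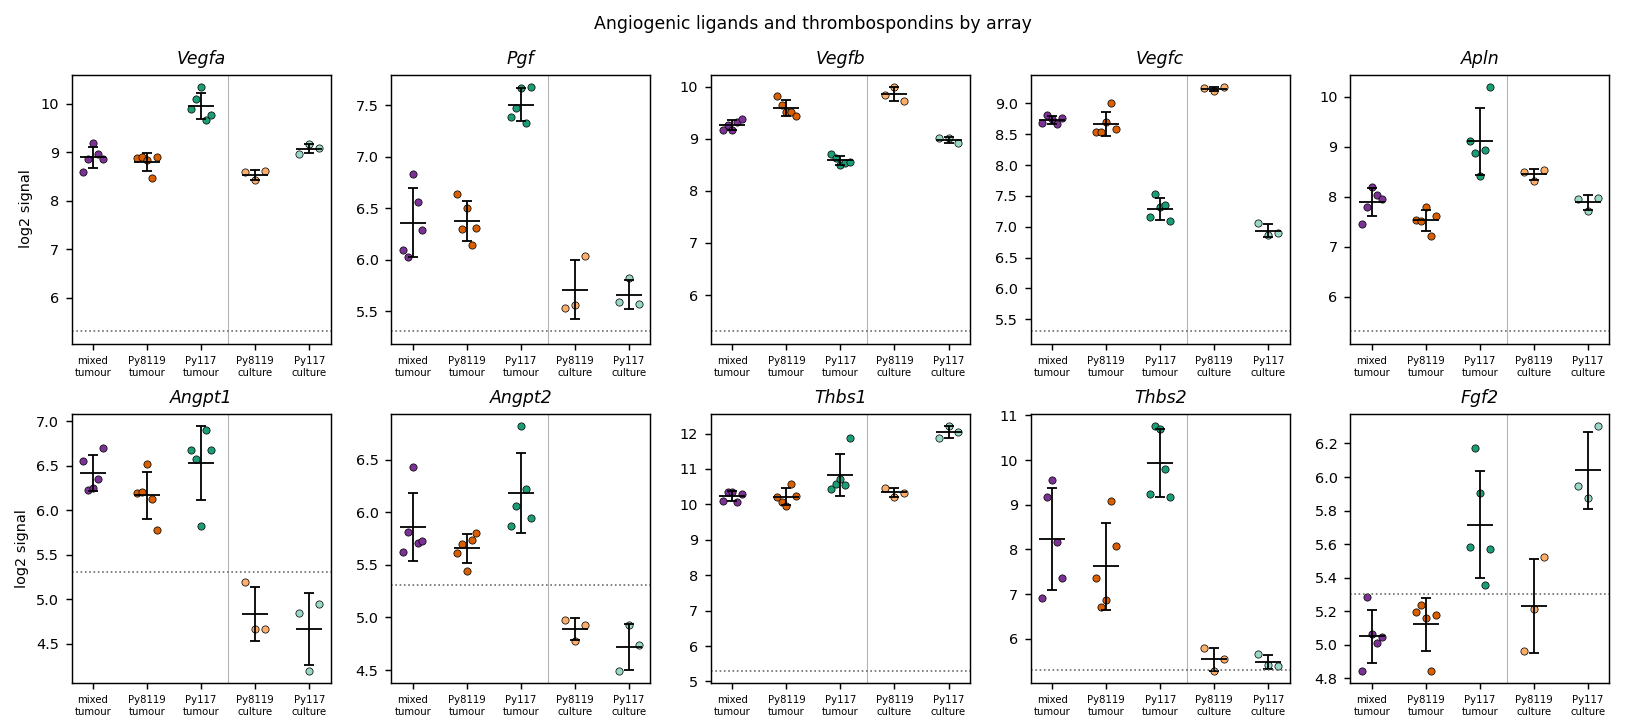
Log2 signal of the 10 angiogenic genes in every array, 1 panel a gene, with points for arrays and bars for the group mean ± SD (n = 5 for each tumour group, n = 3 for each culture group). The dotted line is the background guide at 5.31. Mixed tumours lie close to Py8119 tumours in most panels, while Angpt1 and Angpt2 lie under the line in both cultures.

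The promoter sequences of 5 genes that carry the line and tumour differences are printed because Vegfa and Vegfb, 2 ligands of Flt1, differed in opposite directions, Vegfc had the widest gap between the cultured lines, Apln changed direction between culture and tumour, and Thbs2 had the widest gap between tumour and culture. They are the 250 bases before the annotated start, from RefSeq on GRCm38.p6, at chr17:46032378-46032627 on the minus strand for Vegfa, chr19:6987652-6987901 on the minus strand for Vegfb, chr8:54077282-54077531 on the plus strand for Vegfc, chrX:48034854-48035103 on the minus strand for Apln and chr17:14694263-14694512 on the minus strand for Thbs2. The table held no entry matched to Angpt1, Angpt2 or Thbs1, and the windows of Pgf and Fgf2 were not used because they do not begin at the outer end of the annotated gene. The letters run 5′ to 3′, and capitals mark GC boxes (GGGCGG or its complement CCGCCC) and the core of the hypoxia response element (ACGTG or GCGTG, either strand).
Vegfa: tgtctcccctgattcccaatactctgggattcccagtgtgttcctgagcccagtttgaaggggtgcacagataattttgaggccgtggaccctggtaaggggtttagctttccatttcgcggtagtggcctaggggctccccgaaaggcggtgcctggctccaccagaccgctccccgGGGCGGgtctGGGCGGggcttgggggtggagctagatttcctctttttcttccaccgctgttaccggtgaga
Vegfb: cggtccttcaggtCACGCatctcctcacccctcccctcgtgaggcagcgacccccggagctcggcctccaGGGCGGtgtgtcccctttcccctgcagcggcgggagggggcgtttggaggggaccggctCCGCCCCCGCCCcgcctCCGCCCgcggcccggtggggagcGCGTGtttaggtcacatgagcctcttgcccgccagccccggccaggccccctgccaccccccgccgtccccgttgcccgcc
Vegfc: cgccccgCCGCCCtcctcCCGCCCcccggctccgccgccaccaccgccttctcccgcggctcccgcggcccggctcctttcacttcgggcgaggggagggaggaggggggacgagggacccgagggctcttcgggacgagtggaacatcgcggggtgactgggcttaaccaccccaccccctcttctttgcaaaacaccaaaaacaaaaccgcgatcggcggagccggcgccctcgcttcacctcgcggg
Apln: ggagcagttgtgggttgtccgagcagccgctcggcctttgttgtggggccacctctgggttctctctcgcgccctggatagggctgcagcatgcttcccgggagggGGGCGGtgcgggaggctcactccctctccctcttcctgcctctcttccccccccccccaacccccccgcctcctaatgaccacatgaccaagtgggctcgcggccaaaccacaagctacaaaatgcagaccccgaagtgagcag
Thbs2: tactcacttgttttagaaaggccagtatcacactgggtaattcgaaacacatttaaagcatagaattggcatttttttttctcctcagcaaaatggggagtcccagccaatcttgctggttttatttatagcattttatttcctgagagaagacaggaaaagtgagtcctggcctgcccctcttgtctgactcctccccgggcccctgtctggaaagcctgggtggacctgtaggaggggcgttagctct
The GC box was found 2 times in Vegfa (first bases 72 and 62 before the start), 4 times in Vegfb, 2 times in Vegfc, 1 time in Apln and 0 times in Thbs2. It occurs in 32.7% of all 32851 promoter windows of this length. The core GCGTG was found in Vegfb alone of the 5, 237 and 81 bases before the start, and occurs in 28.2% of all windows. No window held ACGTG (16.6% of all), the TEAD motif GGAATG (12.6%) or the AP-1 motif TGANTCA (6.75%), and the Thbs2 window held TATAAA 126 bases before the start (12.4% of all). Motifs were searched on both strands, and a match or its absence describes only these letters. The share of G and C was 59.2% in Vegfa, 76.4% in Vegfb, 71.6% in Vegfc, 65.2% in Apln and 46.8% in Thbs2, against a median of 52.4% over all windows.

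Vegfa (probe set 17345293, gene at chr17:46016993-46032377) was lower in Py8119 than in Py117, in both settings. The signals were 8.58, 8.87, 9.19, 8.97 and 8.86 in the mixed tumours and 8.89, 8.90, 8.84, 8.46 and 8.90 in the Py8119 tumours, against 9.90, 10.09, 10.35, 9.66 and 9.78 in the Py117 tumours. Py117 tumours were the high group, with no overlap. Vegfa was lower by 1.16 ± 0.14 on the log2 scale (SE), a 2.23-fold gap (limma adjusted p = 1.87e-06). Over 23 alternatives this difference ran from -1.57 to -1.06 and stayed called. In culture Vegfa was 8.59, 8.42 and 8.61 in Py8119 cells, against 8.97, 9.17 and 9.09 in Py117 cells, again without overlap. That difference was -0.54 ± 0.10 (adjusted p = 0.00746). The line difference was wider in the tumours by 0.62 ± 0.20, which did not pass the test (adjusted p = 0.0501) but passed it in 8 of 23 alternatives (adjusted p between 0.0227 and 0.123 over all 23). Vegfa was 1.84-fold higher in Py117 tumours than in Py117 cultures (adjusted p = 0.00144), while the difference of 0.26 ± 0.12 between Py8119 tumours and cultures was not called (adjusted p = 0.122).

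Pgf (17282664, chr12:85166637-85177785), the placental growth factor that binds Flt1, differed between the lines in tumours. It read 6.09, 6.03, 6.83, 6.56 and 6.29 in mixed and 6.64, 6.30, 6.51, 6.15 and 6.30 in Py8119 tumours, against 7.39, 7.47, 7.66, 7.32 and 7.68 in Py117 tumours. No array of the Py117 tumours overlapped the others, and the gap was -1.13 ± 0.14, or 2.18-fold (adjusted p = 4.03e-06). The cultures were near background, at 5.53, 5.56 and 6.04 in Py8119 cells and 5.59, 5.82 and 5.57 in Py117 cells. They overlapped, with a difference of 0.05 ± 0.16 (95% interval -0.33 to 0.42, adjusted p = 0.867). The line difference in tumours differed from that in culture by -1.17 ± 0.20 (adjusted p = 0.000541).

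Vegfb (17362197, chr19:6982472-6987651), the family member least tied to sprouting, ran the other way. Its signals were 9.17, 9.26, 9.17, 9.33 and 9.39 in mixed and 9.82, 9.65, 9.52, 9.51 and 9.44 in Py8119 tumours, against 8.70, 8.64, 8.50, 8.54 and 8.54 in Py117 tumours. The 3 tumour groups did not overlap one another, with the mixed tumours in between. Vegfb was 2.0-fold higher in Py8119 than in Py117 tumours (difference 1.00 ± 0.09, adjusted p = 3.97e-08). The cultures gave a similar gap of 0.88 ± 0.10 (adjusted p = 0.000856), with 9.85, 10 and 9.73 in Py8119 cells and 9.01, 9.02 and 8.91 in Py117 cells. The 2 line differences differed by 0.12 ± 0.14 (95% interval -0.18 to 0.42, adjusted p = 0.658). Of the 10 genes, Vegfb had the smallest measured gap between its 2 line differences.

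Vegfc (17501160, chr8:54077532-54186454) had the lowest adjusted p of the 10 genes both in the tumours and in the cultures. It read 8.68, 8.82, 8.75, 8.66 and 8.76 in mixed and 8.54, 8.53, 8.70, 9.0 and 8.58 in Py8119 tumours, against 7.16, 7.53, 7.32, 7.35 and 7.09 in Py117 tumours. Mixed and Py8119 tumours overlapped, and both lay above all Py117 tumours. The gap was 1.38 ± 0.10, or 2.60-fold (adjusted p = 6.35e-09). It was 4.91-fold in culture (2.30 ± 0.09, adjusted p = 7.24e-06), where Py8119 cells read 9.24, 9.20 and 9.26 and Py117 cells 7.05, 6.87 and 6.90. The difference was smaller in tumours by 0.91 ± 0.17 (interaction -0.91, adjusted p = 0.00128). Py8119 tumours were below Py8119 cultures by 0.56 ± 0.12 (difference -0.56, adjusted p = 0.00344), while the difference of 0.35 ± 0.12 between Py117 tumours and cultures was not called (adjusted p = 0.0551), though it was in 3 of 15 alternatives. Of 6 lymphatic genes, 1 was higher in Py8119 tumours and 1 lower, beside 37.4% of all genes called. The higher one was Pdpn (1.32 ± 0.14), which tumour cells can make and which was also higher in cultured Py8119 cells (2.40 ± 0.12). The defining lymphatic gene Prox1 was in the background range in all 5 groups.

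The receptors of these ligands were lower in Py8119 tumours in most cases: of 14 receptors measured for the 10 genes, 10 were lower, 2 higher and 2 not called, beside the same 37.4% of all genes. Kdr was 7.10, 7.22, 7.07, 7.12 and 7.40 in mixed and 6.55, 6.31, 6.97, 7.05 and 6.82 in Py8119 tumours, against 9.0, 8.85, 8.03, 8.76 and 8.54 in Py117 tumours, a difference of -1.90 ± 0.16 (adjusted p = 4.61e-08). Kdr was in the background range by its mean in both cultures. Flt1 differed by -1.45 ± 0.19 in tumours (adjusted p = 5.57e-06) and also by -1.50 ± 0.12 in cultures (adjusted p = 0.000123), where Py8119 cells read 6.05, 6.11 and 6.27 and Py117 cells 7.75, 7.70 and 7.47. Flt1 is thus an endothelial marker that the cultured Py117 cells also carried. Flt4 was lower by 0.59 ± 0.11 in Py8119 tumours (difference -0.59, adjusted p = 0.000302). The co-receptors were higher there. Nrp2 differed by 1.31 ± 0.14 (adjusted p = 4.99e-07) without overlap, and Nrp1 by 0.32 ± 0.09 (adjusted p = 0.0109) with overlapping arrays. Nrp2 overlapped in the cultures, at 9.97, 9.86 and 10.05 in Py8119 cells and 9.75, 9.85 and 9.99 in Py117 cells, and its line difference in tumours exceeded that in culture by 1.21 (adjusted p = 0.00107). The Nrp1 call was lost with the mean of the adipocyte genes in the model (0.14). In culture Nrp1 went the other way without overlap, at 8.21, 8.28 and 8.39 in Py8119 cells and 8.78, 8.81 and 9.11 in Py117 cells. Its line difference in tumours differed from that in culture by 0.93 (limma interaction, adjusted p = 0.000775).

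**Figure D3:**
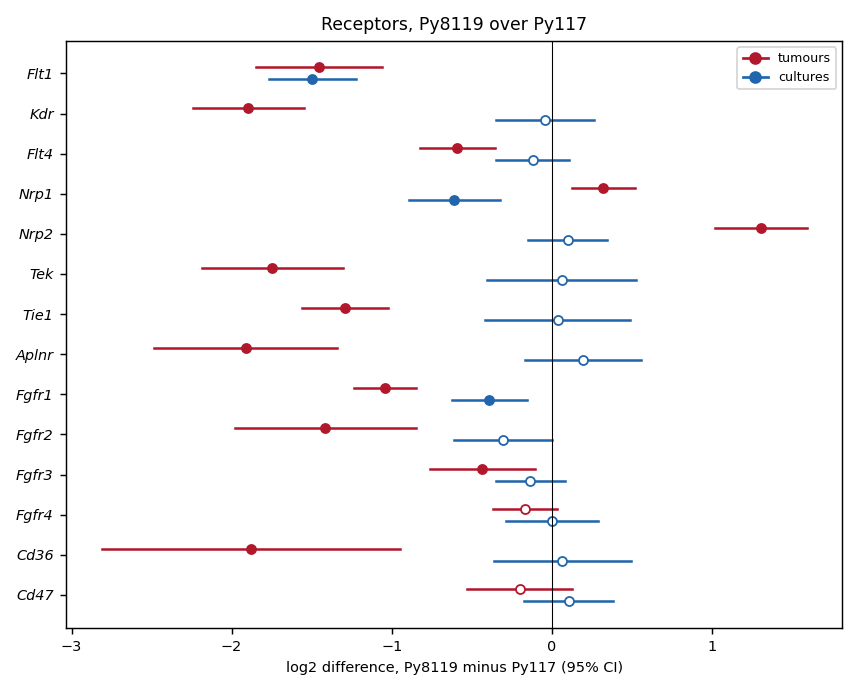
Line difference (log2, Py8119 minus Py117) of the 14 receptors of the angiogenic ligands and inhibitors, in tumours and in cultures, with 95% intervals from limma. Filled points have an adjusted p under 0.05. Nrp1 and Nrp2 are the only receptors called higher in Py8119 tumours, and Flt1 and Fgfr1 are called lower in both settings.

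The angiopoietins read above background in the tumours only. Both cultures lay under the background guide in all 3 arrays for Angpt1 (17316780, chr15:42424667-42676977) and for Angpt2 (17507799, chr8:18690263-18741562). Angpt1 signals were 6.56, 6.23, 6.26, 6.35 and 6.71 in mixed and 6.20, 6.21, 6.53, 6.13 and 5.78 in Py8119 tumours, against 6.68, 6.58, 5.82, 6.90 and 6.68 in Py117 tumours. The groups overlapped, and the difference of -0.36 ± 0.17 did not pass the test (95% interval -0.73 to 0.0006, adjusted p = 0.117). Py117 tumour 3, at 5.82, was the lone low array of its group. Without it Angpt1 was lower in Py8119 tumours by 0.54 (difference -0.54, adjusted p = 0.00321). With the adipocyte covariate the difference was 0.022. A second Angpt1 probe set was in the background range in all groups, with means of 3.93 to 4.19.

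Angpt2 read 5.63, 5.81, 6.43, 5.71 and 5.73 in mixed and 5.61, 5.70, 5.44, 5.74 and 5.80 in Py8119 tumours, against 5.87, 6.06, 6.82, 6.22 and 5.94 in Py117 tumours. Py8119 and Py117 tumours did not overlap, though 5.80 and 5.87 lay close together, and the difference was -0.53 ± 0.17 (adjusted p = 0.0194). The call ended with quantile normalization (adjusted p = 0.0587), with centring on array medians (adjusted p = 0.0534) and without Py8119 tumour 3 (adjusted p = 0.0535), while with the adipocyte covariate the difference was -0.97 (adjusted p = 0.00527). Tumours stood above cultures for both genes and lines: at least 2.34-fold for Angpt1 and 1.84-fold for Angpt2 in Py117, and at least 1.82-fold and 1.28-fold in Py8119, taking the background guide as the level of the cultures. Averaging both Angpt1 probe sets brought its measured differences from cultures to 1.01 in Py117, against 1.87 with the brighter probe set, and to 0.71 in Py8119, against 1.33. Their receptor Tek was lower by 1.75 ± 0.21 in Py8119 tumours (difference -1.75, adjusted p = 2.31e-06), and Tie1, its partner, by 1.29 ± 0.13 (difference -1.29, adjusted p = 2.41e-07). Tek was in the background range in 2 of 5 Py8119 tumours and in 1 of 5 mixed tumours.

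Replicate 3 lay at an end of its group for several genes in both the mixed and the Py117 tumours. Py117 tumour 3 had the highest Vegfa and Angpt2 of its group (10.35 and 6.82), the highest mean of the 24 hypoxia genes (8.68), and the lowest Angpt1 (5.82), Tek (6.31), Aplnr (7.44) and endothelial mean (7.58). Mixed tumour 3 likewise had the highest Vegfa, Angpt2 and hypoxia mean of its group (9.19, 6.43 and 8.42). It also had the lowest Tek (5.28, in the background range) and Aplnr (5.79), but not the lowest endothelial mean (6.99) or Angpt1 (6.26). Apln went opposite ways, being the lowest of its group in Py117 tumour 3 (8.40) and the highest in mixed tumour 3 (8.18).

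**Figure D4:**
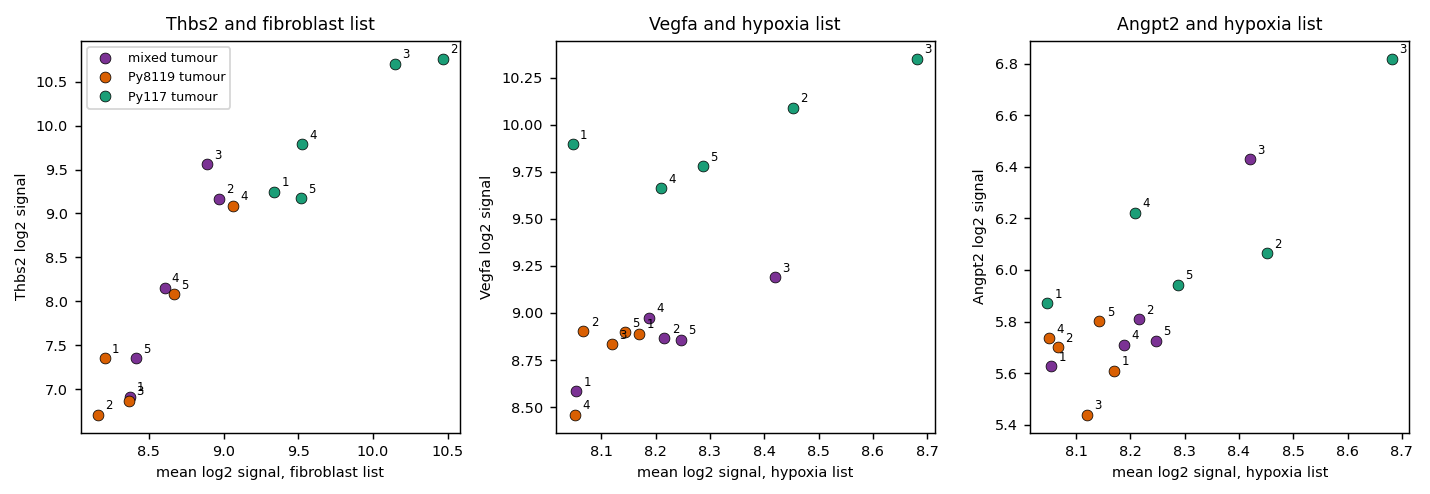
Thbs2 against the mean of 12 fibroblast genes, and Vegfa and Angpt2 against the mean of 24 hypoxia genes, in the 15 tumours (log2 signals). Points are tumours, coloured by group, with the replicate number beside each. Replicate 3 of the mixed and of the Py117 tumours lies at the upper right of its group for Vegfa and Angpt2. Vegfa of every Py117 tumour lies above that of every other tumour.

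Apln (17541378, chrX:48025146-48034853) changed the direction of its line difference between culture and tumour. In tumours it was 7.46, 7.79, 8.18, 8.04 and 7.95 in mixed and 7.53, 7.50, 7.79, 7.21 and 7.61 in Py8119, against 9.12, 8.87, 8.40, 8.93 and 10.20 in Py117. Py8119 tumours were 2.97-fold lower without overlap (difference -1.57 ± 0.24, adjusted p = 3.12e-05). In culture Py8119 cells were higher, at 8.50, 8.32 and 8.53 against 7.96, 7.72 and 7.97 in Py117 cells, by 0.56 ± 0.11 (adjusted p = 0.00971). The culture call ended when all arrays shared 1 fit (adjusted p = 0.148). The interaction was -2.14 ± 0.37 (adjusted p = 0.000734). Py8119 tumours stood 0.92 ± 0.13 below Py8119 cultures (difference -0.92, adjusted p = 0.000276), and Py117 tumours 1.22 ± 0.32 above Py117 cultures (adjusted p = 0.0132), a call that ended without Py117 culture 2 (adjusted p = 0.0597). With the adipocyte covariate the tumour line difference was -0.92 (adjusted p = 0.0428). The 2 Py117 tumours with the highest Apln, 5 and 1, also had the 2 highest adipocyte means (8.28 and 8.27).

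Its receptor Aplnr, which marks venous and sprouting endothelium, was 6.88, 6.80, 5.79, 6.76 and 7.08 in mixed and 6.39, 6.19, 6.54, 7.0 and 6.57 in Py8119 tumours, against 9.20, 8.61, 7.44, 8.67 and 8.35 in Py117 tumours. The Py117 tumours lay above both others, and the difference was -1.91 ± 0.27 (adjusted p = 1.69e-05). Apelin and its receptor were thus both lower in Py8119 tumours, while Aplnr lay at 4.86 to 5.36 in the 6 cultures.

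Fgf2 (17397129, chr3:37348477-37410106), basic fibroblast growth factor, was low on these arrays. It read 4.85, 5.28, 5.06, 5.01 and 5.05 in mixed and 5.20, 5.24, 5.16, 4.85 and 5.18 in Py8119 tumours, all in the background range, against 5.58, 6.17, 5.90, 5.36 and 5.57 in Py117 tumours. The Py117 tumours lay above the others, and Fgf2 was at least 1.33-fold lower in Py8119 tumours, taking background as their level (measured difference -0.59 ± 0.13, adjusted p = 0.00150, and -1.03 with the adipocyte covariate). In culture it was 4.96, 5.21 and 5.52 in Py8119 cells, against 5.95, 5.87 and 6.30 in Py117 cells. The mean of the Py8119 cultures and 2 of their 3 arrays were in the background range, so Fgf2 was at least 1.66-fold lower there (measured difference -0.81 ± 0.18, adjusted p = 0.0137). The call ended without Py117 culture 3 (adjusted p = 0.0503). Fgfr1, a receptor of stromal cells that both cultured lines also carried, was lower in Py8119 tumours by 1.04 ± 0.09 (difference -1.04, adjusted p = 5.61e-08). It was also called lower in cultured Py8119 cells, with means of 8.73 in Py8119 and 9.12 in Py117 cultures. That culture call ended with array median centring (-0.24, adjusted p = 0.181), without Py117 culture 1 or 2, and without any 1 Py8119 culture. Fgfr2 was in the background range in all 5 Py8119 tumours and Fgfr3 in 4 of 5. For each of these 2 genes, 2 of 5 Py117 tumours were in that range too. Their differences are given as bounds on the group means, with background taken as the Py8119 level. Fgfr2 was at least 1.36-fold lower in Py8119 tumours (measured difference -1.42 ± 0.27, adjusted p = 0.000316) and Fgfr3 at least 1.10-fold lower (measured difference -0.43 ± 0.16, adjusted p = 0.0367). Fgfr4, at -0.17, was not called (adjusted p = 0.190). The Fgfr2 and Fgfr3 calls were lost with the adipocyte covariate, and the Fgfr3 call also with quantile normalization, with median centring and with the replicate number as a block. Leaving out Py117 tumour 2, 4 or 5 or Py8119 tumour 2, 3 or 5 ended the Fgfr3 call as well.

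Thbs1 (17374488, chr2:118111876-118127133), the thrombospondin released by platelets and by many cells under stress, was lower in Py8119 in culture. Its signals there were 10.47, 10.21 and 10.33 in Py8119 cells, against 11.88, 12.21 and 12.04 in Py117 cells. The gap was 3.27-fold with no overlap (-1.71 ± 0.12, adjusted p = 8.49e-05). In tumours Thbs1 was 10.10, 10.36, 10.34, 10.07 and 10.29 in mixed and 10.21, 10.08, 9.97, 10.59 and 10.24 in Py8119, against 10.43, 10.57, 10.71, 10.54 and 11.86 in Py117. Py117 tumour 5, at 11.86, stood far above the rest, and the Py8119 and Py117 arrays overlapped. The difference was -0.61 ± 0.21 (adjusted p = 0.0270). It was -0.35 without Py117 tumour 5 (adjusted p = 0.0284), and the call ended with the adipocyte covariate (-0.16, adjusted p = 0.743), with centring on array medians (-0.50, adjusted p = 0.0572) and without Py8119 tumour 2 (adjusted p = 0.0597) or 3 (adjusted p = 0.0693). Py117 tumours were below Py117 cultures by 1.22 ± 0.29 (difference -1.22, adjusted p = 0.00751), and the difference of -0.12 ± 0.14 in Py8119 was not called (adjusted p = 0.528). Of 8 platelet genes, 1 was higher and 1 lower in Py8119 tumours, beside 37.4% of all genes called. Ppbp, Gp6 and Clec1b were in the background range in all tumour groups.

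Thbs2 (17341080, chr17:14665500-14694262), made chiefly by fibroblasts, was near background in both cultures and varied most among the tumours. Cultures read 5.80, 5.28 and 5.54 in Py8119 cells and 5.65, 5.41 and 5.38 in Py117 cells, a difference of 0.06 ± 0.15 (95% interval -0.30 to 0.42, adjusted p = 0.810). Tumours read 6.91, 9.17, 9.56, 8.15 and 7.35 in mixed and 7.35, 6.71, 6.87, 9.09 and 8.08 in Py8119, against 9.25, 10.76, 10.71, 9.79 and 9.17 in Py117. Py8119 and Py117 tumours did not overlap, but 9.09 and 9.17 were close, and the mixed tumours overlapped both. Thbs2 was 4.98-fold lower in Py8119 tumours (-2.32 ± 0.52, adjusted p = 0.00138). Over 23 alternatives this difference ran from -3.39 to -2.09 and stayed called. Tumours stood 22.0-fold above cultures in Py117 (adjusted p = 7.14e-06) and 4.23-fold in Py8119 (adjusted p = 0.00547). The line difference in tumours differed from that in culture by -2.38 ± 0.64 (adjusted p = 0.0190). The fibroblast mean moved with it: 8.37, 8.97, 8.89, 8.61 and 8.41 in mixed and 8.21, 8.16, 8.37, 9.06 and 8.67 in Py8119 tumours, against 9.34, 10.47, 10.15, 9.53 and 9.52 in Py117 tumours. The tumour with the highest Thbs2 also had the highest fibroblast mean in the Py8119 group (tumour 4) and in the Py117 group (tumour 2), while in the mixed group the highest Thbs2 was in tumour 3 and the highest fibroblast mean in tumour 2. The share of fibroblast RNA in these values was not tested.

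Among the receptors of the thrombospondins, Cd36, which adipocytes, macrophages and capillary endothelium also make, differed by -1.88 ± 0.44 in tumours with overlapping arrays (adjusted p = 0.00219). With the adipocyte covariate the difference turned to 0.35 (adjusted p = 0.217). Cd47, a widely made receptor, was not called (-0.20, adjusted p = 0.376).

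**Figure D5:**
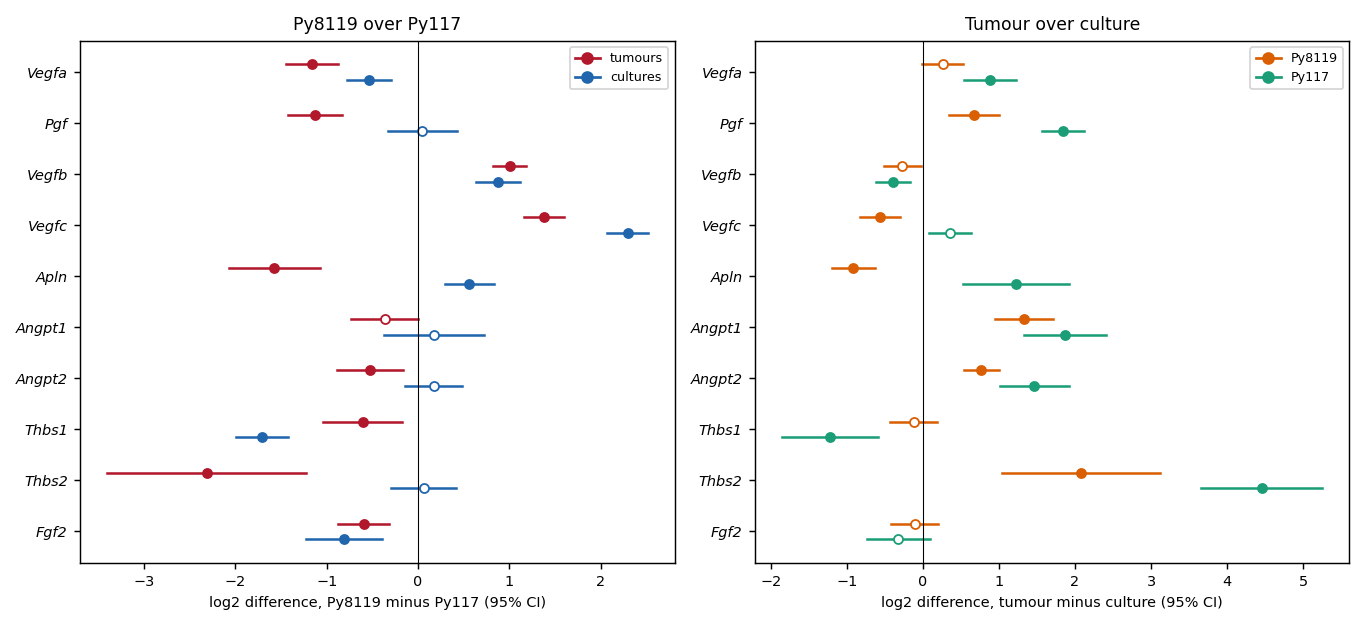
Log2 differences of the 10 angiogenic genes with 95% intervals from limma. The left panel gives Py8119 minus Py117 in tumours and in cultures, and the right panel tumour minus culture in Py8119 and in Py117. Filled points have an adjusted p under 0.05. Apln lies on opposite sides of 0 in tumours and cultures, and Vegfb keeps its place.

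Other genes of the same pathways were read from lists, whose counts stand beside 37.4% of all genes called (21% higher and 16.5% lower). Of 23 other genes listed as angiogenic ligands, 5 were higher and 11 lower in Py8119 tumours, with a median difference of -0.49. Ptn (pleiotrophin) was lowest against Py117 at -3.12 ± 0.11 and Nrg1 (neuregulin) highest at 2.58 ± 0.14, and Fgf1 differed by -1.69 ± 0.12. Pdgfd, in the background range by its mean and in 4 of 5 Py8119 tumours, was at least 2.87-fold lower there (measured difference -1.92 ± 0.15). Of 28 other genes listed as inhibitors, 7 were higher and 12 lower, with a median of -0.19. These held Timp3, a metalloproteinase inhibitor that also blocks VEGF at Kdr, at -4.59 ± 0.24, the chemokine Cxcl9 at -4.25 and the platelet factor Pf4 at 2.08. They also held the thrombospondin Thbs4, in the background range by its mean and in 3 of 5 Py8119 tumours, which was at least 5.96-fold lower there (measured difference -2.59). Pro- and anti-angiogenic genes were thus both found on each side. Of 15 tip cell genes, 3 were higher and 12 lower, with a median of -0.64. The laminin chain Lama4 differed by -2.56 and Igfbp3 by -1.42. Esm1 was among the 3 higher genes, at 7.10 ± 0.20 in Py8119 and 6.31 ± 0.41 in Py117 tumours (SD, n = 5 each). It averaged 8.51 in Py8119 cultures and 5.10, in the background range, in Py117 cultures. Apln, Angpt2, Kdr and Flt4, described above, also belong to that list, so it partly repeats them. Cultured cells carried part of the list, with 4 of 15 genes in the background range in each culture group. The list mean was 6.78 in Py8119 and 6.71 in Py117 cultures, against 7.17 and 7.84 in their tumours. Pdgfb averaged 8.87 in Py117 cultures and 7.51 in Py117 tumours. The part of tip cells in these counts was not tested.

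Hypoxia genes went both ways between the tumours of the lines, and the part of low oxygen in the Vegfa difference was not tested. Of 24, 5 were higher and 7 lower in Py8119 tumours, beside 37.4% of all genes called, and their median was -0.06. Egln3, the oxygen-sensing hydroxylase, was lower at -2.46 ± 0.31 in tumours but higher at 1.13 ± 0.15 in culture, the same pair of directions as Apln. Epas1 (HIF-2α, also an endothelial gene) was lower in both, with differences of -2.11 in tumours and -2.25 in culture. Pfkfb3 was lower in tumours (-1.05), and the MYC antagonist Mxi1 was higher (0.80). The hypoxia mean was 8.23 ± 0.13 in mixed, 8.11 ± 0.05 in Py8119 and 8.34 ± 0.24 in Py117 tumours (SD, n = 5 each).

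The mixed tumours resembled Py8119 tumours. Against Py117 tumours, 8 of the 10 genes were called, 2 higher and 6 lower, beside 36.1% of all genes (19.2% higher and 16.9% lower). They were the genes called between the unmixed tumours other than Angpt2 (difference -0.32, adjusted p = 0.151). Angpt2 was called lower in mixed tumours with the adipocyte covariate (-0.73, adjusted p = 0.0219) and without mixed tumour 3 (-0.47, adjusted p = 0.0242). Thbs1 differed by -0.59 ± 0.21 (adjusted p = 0.0327). It differed by -0.33 without Py117 tumour 5 (adjusted p = 0.0371), and the call ended with the adipocyte covariate (-0.18, adjusted p = 0.669), with median centring (adjusted p = 0.0520) and without mixed tumour 1, 4 or 5. Fgf2, in the background range in all 5 mixed tumours, was at least 1.33-fold lower there (measured difference -0.67, adjusted p = 0.000662, and -1.06 with the adipocyte covariate). Thbs2 differed by -1.71 ± 0.52 (adjusted p = 0.0146, and -2.69 with the adipocyte covariate) with overlapping arrays. Apln was lower by 1.22 ± 0.24 (difference -1.22, adjusted p = 0.000497), a call that ended with the adipocyte covariate (adjusted p = 0.139). Against Py8119 tumours, 0 of the 10 were called by limma, beside 1.78% of all genes (1.61% higher and 0.162% lower), and 1 had an unadjusted p under 0.05. That 1 was Vegfb, at -0.32 ± 0.09 without overlap (adjusted p = 0.0732), which was called in 4 of the alternative fits. Intervals of the other 9 reached from -0.48 to 1.70 for Thbs2, the widest, and from -0.15 to 0.28 for Vegfc, the narrowest.

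Placed on a linear scale between the means of the unmixed tumours, with Py117 at 0% and Py8119 at 100%, the mean of the mixed tumours was at 94.2% for Vegfa, 99.8% for Pgf, 99.5% for Thbs1, 106% for Vegfc, 87.2% for Apln and 83.7% for Thbs2. Vegfb was at 59.7% and its 5 tumours ran between 49.6% and 73.5%. Angpt2 was at 64.1%, with single tumours between -46.3% and 105%. Of the genes placed, Vegfb alone (Angpt1, not called, and Fgf2, in the background range at the Py8119 end, were left out) had all 5 mixed tumours between the means of the unmixed groups. The share of each line in the mixed tumours at collection was not given in the sources used here.

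Between tumour and culture, 8 of the 10 genes were called in Py117, 6 higher and 2 lower in tumours, beside 30.7% of all genes (12.4% higher and 18.3% lower). In Py8119 6 were called, 4 higher and 2 lower, beside 37.1% (16.3% higher and 20.9% lower). Pgf, Angpt1, Angpt2 and Thbs2 were higher in tumours of both lines. Vegfa and Apln were higher in tumours of Py117, where Vegfb and Thbs1 were lower, and Vegfc and Apln were lower in tumours of Py8119. Vegfb in Py8119 differed by -0.27 ± 0.11 (adjusted p = 0.0813) and was called lower in 5 of 15 alternatives, with -0.48 under median centring (adjusted p = 0.00810). Vegfb in Py117 differed by -0.39 ± 0.10 (adjusted p = 0.0119), a call that ended with the replicate number as a block (adjusted p = 0.0837) and without Py117 culture 1 (adjusted p = 0.0540). The line differences of 5 genes differed between tumours and cultures, 1 higher (Thbs1) and 4 lower (Vegfc, Pgf, Thbs2, Apln), beside 13.5% of all genes (7.50% higher and 5.99% lower). The Thbs1 interaction of 1.10 ± 0.34 (adjusted p = 0.0420) was lost in 15 of 23 alternatives.

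The genes nearest to each member in pattern were taken as those with the smallest root mean square difference of log2 signals over the 21 arrays, after each gene's own mean was removed. They were Rnf114 for Vegfa (0.172), Phc1 for Vegfb (0.117), Pcdh19 for Vegfc (0.206), Tmem50b for Pgf (0.276), Nid2 for Angpt1 (0.221), Tapbp for Angpt2 (0.141), Sel1l3 for Thbs1 (0.226), Lum for Thbs2 (0.419) and H6pd for Apln (0.324). The next nearest to Thbs2 were the collagen gene Col1a2 (0.441) and Spon1 (0.486), and the third nearest to Pgf was Robo4 (0.294), an endothelial receptor. The 21 arrays share 5 group means, so nearness mostly follows the groups. Fgf2, whose group means spanned less than 1, was given no such gene.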

How the data were processed

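RNA of 21 samples was hybridised to mouse whole-transcript arrays from Affymetrix after WT PLUS labelling, per the labels. The deposited values are log2 signals per probe set that the authors made by RMA, and limma was also named, per the submitters' processing notes. The array's genome build was not given in the sources used here, and coordinates and promoters are from RefSeq on GRCm38.p6. Of 41345 probe sets, 23521 carry 1 gene symbol, 1814 several and 16010 none. For each of 22180 genes the brightest single-symbol probe set on average was kept, a choice that arose for 1082 genes. Groups were compared with limma 3.58.1 in R 4.3.3 (lmFit, eBayes), with the 6 culture arrays, the 15 tumour arrays, the 8 arrays of a line and, for the interaction, the 16 unmixed arrays in separate fits. Adjusted p-values are Benjamini-Hochberg over all genes. The fit was tested on simulated data. The genes, lists and tests were chosen with earlier results of these data known. All 10 genes and their 14 receptors are named. Of the other ligand, other inhibitor, hypoxia, tip cell and lymphatic lists, up to 4 genes with the largest tumour line difference among those called without overlap are named. The remaining lists are given mainly by counts and means. Esm1 and the culture values of Egln3 and Epas1 were added after they were seen. Epcam, Krt8, Prox1, Ppbp, Gp6, Clec1b, Vash2, Sphk1, Pdgfb and the culture value of Pdpn were also given outside that rule. Alternatives were quantile normalization, array median centring, a low-signal filter, the mean of probe sets, a trended robust prior, 1 fit of all arrays, the replicate number as a block, the adipocyte mean as a covariate, and each array left out. Replicate numbers are not said to pair samples.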

Additional observations from a re-analysis of the deposited data

Results flagged for a closer look

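Within groups of 5 tumours, 8 of 72 gene and group combinations held a tumour far from the others by Dixon's criterion, where chance gives about 1 in 20. Among the ligands and inhibitors they were Vegfa in Py8119 tumour 4 (8.46, low), Angpt2 in mixed tumour 3 (6.43, high), Thbs1 in Py117 tumour 5 (11.86, high) and Fgf2 in Py8119 tumour 4 (4.85, low and in the background range). Among the receptors they were Nrp1 in Py117 tumour 2 (9.69, high), Aplnr in mixed tumour 3 (5.79, low), Fgfr2 in mixed tumour 1 (4.98, high but in the background range) and Fgfr4 in mixed tumour 1 (5.24, likewise). Vegfa was not called between Py8119 tumours and cultures with all tumours, but was without Py8119 tumour 4 (0.34, adjusted p = 0.0125).

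The line difference in tumours differed from that in culture by a limma interaction test for 5 ligands and inhibitors: by -0.91 for Vegfc, -1.17 for Pgf, 1.10 for Thbs1, -2.38 for Thbs2 and -2.14 for Apln. It also differed for 7 receptors: by -1.85 for Kdr, 0.93 for Nrp1, 1.21 for Nrp2, -1.81 for Tek, -1.33 for Tie1, -2.11 for Aplnr and -0.65 for Fgfr1. Tumours hold host cells and cultures do not, so growth in the animal and host RNA cannot be told apart in these values.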

How the results depend on the processing

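Of 499 differences of the 10 genes recomputed under alternatives other than leaving out an array, 469 kept their direction and their side of the threshold. Against Py8119 tumours, 1 of the 10 genes (Vegfb, lower in mixed tumours) was called with array median centring, with low-signal genes left out, with a trended robust prior and with 1 fit of all arrays, against 0 otherwise. With the adipocyte covariate the sign turned for Angpt1 between Py8119 and Py117 tumours (0.022) and between mixed and Py117 tumours (0.24), for Thbs1 between mixed and Py8119 tumours (-0.022, also -0.024 with median centring) and for Cd36 between Py8119 and Py117 tumours (0.35). None of these turned values was called, and the cause was not tested. Leaving out 1 array at a time turned the sign of differences that were not called. They ran from -0.12 to 0.14 for Pgf, -0.055 to 0.32 for Angpt1 and -0.065 to 0.19 for Thbs2 between cultures, from -0.13 to 0.065 for Pgf and -0.047 to 0.11 for Thbs1 between mixed and Py8119 tumours, and from -0.24 to 0.037 for Fgf2 between Py8119 tumours and cultures. The low-signal filter removed Angpt1, Angpt2 and Fgf2, which have no value there. Without Py117 tumour 3, 599 genes in all were called between mixed and Py8119 tumours, against 394.

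With the replicate number as a block, 6 of the 10 genes were called between the cultures, 9 between Py8119 and Py117 tumours, 8 between mixed and Py117 tumours, 0 between mixed and Py8119 tumours, 7 and 6 between tumour and culture in Py117 and Py8119, and 6 in the interaction. The block changed the calls of Vegfb between Py117 tumours and cultures (lost) and of the Vegfa interaction (gained, adjusted p = 0.0227), and no other call of the 10 genes. The labels do not say that the numbers pair samples, so they are not taken as pairs. Over all pairs of groups, same-numbered samples showed correlations of their deviations from -0.23 to 0.26. Between mixed and Py117 tumours, 4 of 5 tumours correlated best with their own number. The mean correlation there was 0.13 for the same number and -0.03 for other numbers, and its cause was not tested.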
